A study of Mus musculus with 8 samples.

Results

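Chd3 and 9 other genes of the nucleosome remodelling and deacetylase complex (NuRD) were followed in embryonic mouse kidney. All 10 were found by symbol among the 23337 genes of the deposited table (Chd3, Chd4, Chd5, Mta1, Mta2, Mta3, Hdac1, Hdac2, Mbd3 and Rbbp4). Chd3 was chosen by its measured difference between mutants and controls in these same libraries (its fold change and adjusted p), so that difference is given as a description and supports nothing further. The other 9 were chosen as subunits of the same complex, with earlier results of these data known. RNA came from E13.5 embryonic kidneys on a mixed C57BL/6 background, in 4 control and 4 mutant libraries. Control kidneys were Smo(flox/+), in which 1 of the copies of Smo is floxed, and no Cre is named for them. Mutant kidneys were Foxd1Cre;Smo(flox/-): their other copy of Smo is inactive, and Cre recombinase is driven from Foxd1, a gene of renal stromal progenitors. Both groups therefore carried a floxed copy of Smo, and the effects of stromal recombination, of the copy missing throughout the body and of the Cre allele cannot be told apart. Whole kidneys were sequenced, so a lower level in every stromal cell and fewer stromal cells cannot be told apart.

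NuRD joins an ATP-driven nucleosome remodeller to histone deacetylases, and it is mostly known for lowering transcription at the genes to which it is recruited. The remodeller is CHD3, CHD4 or CHD5, which occupy the same position and exclude each other. HDAC1 and HDAC2 remove acetyl groups from histones, MTA1, MTA2 and MTA3 form the scaffold that holds the deacetylases, MBD2 or MBD3 bridges the deacetylase and remodeller parts, and RBBP4 and RBBP7 bind histones. In the developing kidney NuRD is known as a partner of SALL1, a transcription factor of nephron progenitors.

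Reads of the remodeller genes can be told apart, and the most alike stretches of their messages show how closely. The longest run shared exactly by the coding sequences of Chd3 and Chd4 was 35 bases, and that shared by Chd3 and Chd5 was 29 bases. Below, each run is in capitals with 20 flanking bases on either side in lower case, 5′ to 3′, from GENCODE vM21 transcripts (GRCm38), with positions counted from 1 at the first base of the start codon. The first pair compares Chd3 (coding bases 3602 to 3676) with Chd4 (3416 to 3490) in the part that encodes the ATPase motor, and the second pair compares Chd3 (2519 to 2587) with Chd5 (2261 to 2329) in another stretch of it.
Chd3 against Chd4, Chd3: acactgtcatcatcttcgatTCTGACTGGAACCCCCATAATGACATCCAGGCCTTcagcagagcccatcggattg
Chd3 against Chd4, Chd4: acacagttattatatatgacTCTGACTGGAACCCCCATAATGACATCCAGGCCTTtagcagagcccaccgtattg
Chd3 against Chd5, Chd3: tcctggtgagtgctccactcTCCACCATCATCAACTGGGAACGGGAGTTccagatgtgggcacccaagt
Chd3 against Chd5, Chd5: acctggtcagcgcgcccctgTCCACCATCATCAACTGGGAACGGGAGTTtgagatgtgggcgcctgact
Even there the neighbouring bases differ. Of 7212 windows of 50 bases in the longest coding Chd3 transcript, 0 occurred on either strand in a transcript of any other gene, and the same was true of the 6488 windows of Chd4. Hdac1 and Hdac2 shared at most 17 coding bases in a row and the 3 Mta genes at most 20, so no window of 50 bases was common to any of the 10 genes.

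Libraries held 10288191 to 13494079 reads in genes. Levels are normalised read counts (reads divided by the size factor of each library), given as mean ± SD of the 4 libraries in a group. A log2 fold change compares mutants with controls after adding 1 to each normalised count, and adjusted p-values come from limma with Benjamini-Hochberg adjustment over the 13692 genes with a mean normalised count of at least 10. The labels do not say that the numbered samples came from separate embryos, so part of the spread behind each p-value may be technical. The sexes given below set control 4 and mutant 2 apart from the other libraries of their group, but do not separate those others. As a check of the labels, Smo was 2241 ± 66.4 in controls and 537 ± 20.01 in mutants. Markers of nephron progenitors, stroma, ureteric bud and endothelium were present in every library. Summed markers of skeletal muscle were 2983 in control 2 and 1638 in mutant 2 against 80.7 to 498 elsewhere. Summed liver markers were 699 in control 1 against 10.3 to 136 elsewhere. Xist with 4 Y-linked genes marked control 4 and mutant 2 as the male libraries.

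Of the 3 remodeller genes, Chd3 was lower in mutants, while Chd4, the more abundant one per kb of exon, was not detectably different and Chd5 was close to absent. Chd3, on the minus strand of chromosome 11 from 69343273 to 69369406 (GRCm38), encodes a chromodomain helicase of the Mi-2 type. Its level was 4864, 4945, 5011 and 5193 in controls 1 to 4 and 3940, 3940, 3975 and 4339 in mutants 1 to 4. All 4 mutants lay below all 4 controls, and mutant 4 lay above the other mutants, which were close together. The mean fell from 5003 ± 140 to 4049 ± 194, which is 80.9% of the control level (log2 fold change -0.31, SE 0.038, 95% interval -0.39 to -0.22, adjusted p = 0.0064 by limma). This is the contrast on which it was chosen. At an adjusted p under 0.05, 0.570% of all tested genes were called (0.446% lower and 0.124% higher in mutants). The groups did not overlap in 5.31% of them (3.00% lower and 2.31% higher). Since Chd3 was chosen on this contrast, nothing is read from its place among them. In the authors' deposited table, made from the same libraries, its log2 fold change was also -0.31, with an adjusted p of 1.80e-06. It stayed called whichever single library was dropped (adjusted p from 0.0021 to 0.0375, by limma), but not without both libraries numbered 2 (log2 fold change -0.30, adjusted p = 0.0882) or without the intensity trend in limma (adjusted p = 0.105).

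For Chd3, counting error was smaller than the spread between libraries in both groups. A gene at the mean read count of Chd3 has a counting error of 1.48% per library, and the spread between libraries was 2.80% in controls and 4.8% in mutants. Because Chd3 was chosen by its difference between groups, that difference is not weighed against these values.

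Chd4, on the plus strand of chromosome 6 from 125095981 to 125130591, encodes the main remodeller of NuRD in most tissues, and its exons hold Mir7045 (63 bases, same strand). Its level was 8294, 8370, 8660 and 9454 in controls 1 to 4 and 8674, 9005, 9464 and 9291 in mutants 1 to 4, so the groups overlapped. The mean was 8695 ± 530 in controls and 9108 ± 346 in mutants (log2 fold change 0.07, SE 0.045, adjusted p = 0.774 by limma). The 95% interval of the difference ran from -2.02% to 12.2%, so a fall of the size seen in Chd3 lay outside it. The size of the difference depended on single libraries: the log2 fold change of Chd4 was 0.11 without control 4 (adjusted p = 0.194 by limma) and 0.0088 without controls 1 and 2 (adjusted p = 0.974 by limma). Chd5, a remodeller best known from neurons, on chromosome 4 from 152338651 to 152390194, had 6 to 14 reads per library. Its normalised counts were 9.4, 10.3, 10.7 and 8.5 in controls and 9.5, 9.6, 6.7 and 15.0 in mutants. The groups overlapped, and its mean fell just under the minimum of 10, so it was not tested. With no minimum its log2 fold change was 0.02 (95% interval -0.63 to 0.68, adjusted p = 0.996 by limma). Its exons share 101 bases with Gm13645 on the opposite strand, and without strand those reads cannot be told apart. Beside it, the 8 neuronal markers summed to 324 to 384 in controls and 350 to 442 in mutants. Elavl4 made up the largest part (157 to 260 in any library), followed by Stmn2 (71.7 to 116). Th, the enzyme that starts catecholamine synthesis, ran from 0 to 16.2. The part of neurons in the level of Chd5 was not tested.

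**Figure D1:**
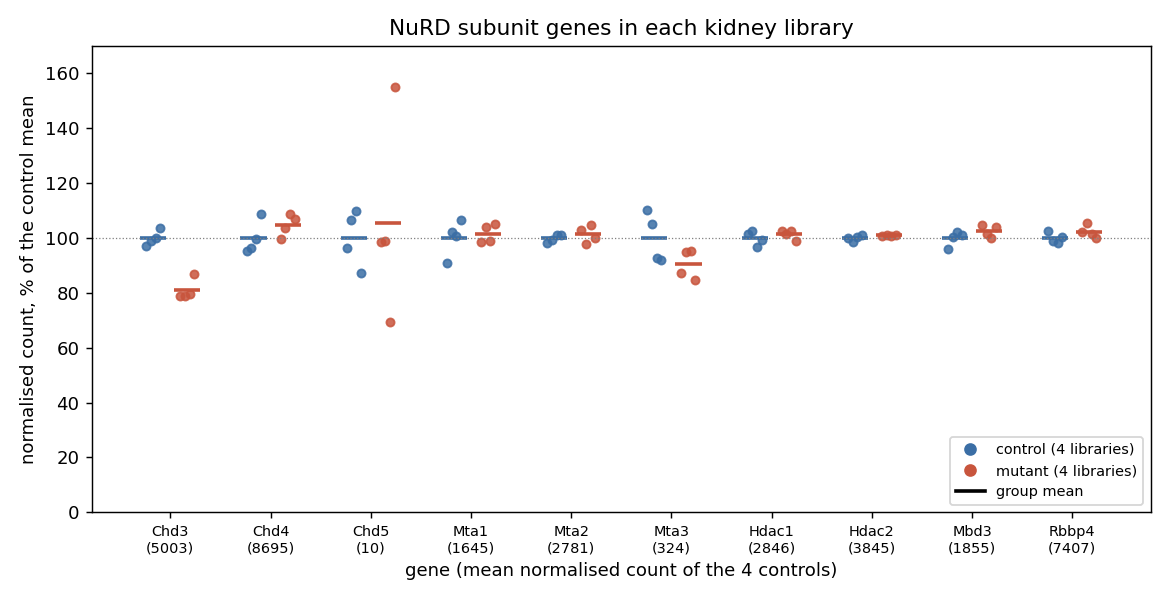
Normalised count of each of the 10 genes in each library, as a percent of the mean of the 4 controls (y axis), by gene (x axis, with that mean in parentheses). Points are libraries and bars are group means. Chd3 is the gene in which all 4 mutants lie below all 4 controls, and Chd5 scatters widely because few reads stand behind it.

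In mRNA, the balance among the remodeller genes differed between the groups. Protein and the makeup of the complex were not measured. Normalised counts per kb of exon are needed to compare genes with each other. On that scale Chd3 made up 35.8%, 35.9%, 35.4% and 34.3% of Chd3, Chd4 and Chd5 together in controls 1 to 4, and 30.1%, 29.3%, 28.5% and 30.7% in mutants 1 to 4. The mean share was 35.3% ± 0.75 in controls and 29.7% ± 0.95 in mutants, and the groups did not overlap. Because Chd3 was chosen for its difference, this share is a description and was not tested. Chd4 supplied nearly all of the rest, at 64.6% ± 0.75 in controls and 70.3% ± 0.97 in mutants, and Chd5 0.042% to 0.094% in any library. With the length of the longest transcript in place of all exons, the share of Chd3 was 34.7% in controls and 29.1% in mutants.

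The MTA scaffold genes were expressed at unequal levels, and none of the 3 passed the test. Mta1, on chromosome 12 from 113098278 to 113137206, stood at 1645 ± 108 in controls and 1672 ± 54.8 in mutants (log2 fold change 0.02, adjusted p = 0.943 by limma). The 95% interval of the difference was -5.56% to 9.62%. Its libraries lay between 1495 and 1752 in controls and between 1623 and 1729 in mutants, so the mutants fell inside the control range. Its sign turned without control 1 (log2 fold change -0.02). Mta2, on chromosome 19 from 8941875 to 8952303, was at 2781 ± 39.7 in controls and 2820 ± 83.2 in mutants (log2 fold change 0.02, adjusted p = 0.921 by limma), with a 95% interval from -3.38% to 6.39%.

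Mta3, on chromosome 17 from 83706163 to 83821516, had the largest difference after Chd3. Its level was 356, 340, 300 and 298 in controls 1 to 4 and 283, 308, 308 and 274 in mutants 1 to 4. Controls 3 and 4 lay within the mutant range, so the groups overlapped. The mean was 324 ± 29.1 in controls and 293 ± 17.5 in mutants (log2 fold change -0.14, SE 0.077, adjusted p = 0.694 by limma). Its 95% interval was the widest of the 9 tested genes, from -19.3% to 1.93%, and a fall of the size of that in Chd3 just lay within it. Without controls 1 and 2 the log2 fold change of Mta3 was -0.03. Per kb of exon, Mta3 made up 4.8% ± 0.56 of the 3 scaffold genes in controls and 4.30% ± 0.26 in mutants, against 41.7% and 42.0% for Mta1 and 53.5% and 53.7% for Mta2.

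Of the 2 deacetylase genes, which encode the enzymes that remove histone acetylation, neither passed the test, and Hdac2 had the smallest spread between libraries of all 10 genes in both groups. Hdac2, on chromosome 10 from 36974544 to 37001889, stood at 3848, 3783, 3862 and 3888 in controls 1 to 4 and at 3878, 3890, 3870 and 3890 in mutants 1 to 4. The mutant libraries differed from each other by 0.25% (SD as a percent of the mean), less than the 1.60% that counting error alone gives on average. The means were 3845 ± 44.3 and 3882 ± 9.8 (log2 fold change 0.01, adjusted p = 0.940 by limma), with a 95% interval from -2.99% to 5.07%. Hdac1, on chromosome 4 from 129516104 to 129542713, was at 2846 ± 73.4 in controls and 2888 ± 48.8 in mutants (log2 fold change 0.02, adjusted p = 0.912 by limma), with a 95% interval from -3.19% to 6.40%.

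Per kb of exon the 2 deacetylase genes were near equal, with Hdac1 at 49.0% ± 0.88 in controls and 49.1% ± 0.47 in mutants. Which of them was higher depended on the length used, since Hdac1 made up 54.1% of the controls' sum with the longest transcript. The level of Hdac1 is uncertain in another way. Of its windows of 50 bases, 58.7% also occur in transcripts of 3 other genes, chiefly Gm10093 (56.4%), and the sources used here do not say how reads that map to several places were counted.

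Mbd3, the bridging subunit, and Rbbp4, the histone-binding one, were also not detectably different. Mbd3, on chromosome 10 from 80392539 to 80399550, was at 1855 ± 49.6 in controls and 1901 ± 42.3 in mutants (log2 fold change 0.04, adjusted p = 0.845 by limma), with a 95% interval from -2.61% to 7.94%. It stood above its alternative Mbd2 per kb, at 82.5% ± 0.68 of the pair in controls and 82.9% ± 0.68 in mutants. Rbbp4, on chromosome 4 from 129307100 to 129335370, was at 7407 ± 141 in controls and 7576 ± 163 in mutants (log2 fold change 0.03, adjusted p = 0.832 by limma), with a 95% interval from -2.08% to 6.84%. Of its windows 33.8% occur in other genes, mainly Gm26722 (17.2%) and Sync (15.8%), which lie on the opposite strand. Sync was at 3.8 to 28.9 normalised counts.

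Across the 10 genes, then, 1 was called, 8 were tested and not called, and 1 was too low to test. Among the 8 genes other than Chd3, limma, edgeR and DESeq2 each called 0, and 0 had an unadjusted p under 0.05 in any of the 3. Of these 8, 7 had a fold change above 0, as had 7104 of all 13692 tested genes. Their median log2 fold change was 0.023 against 0.0037 for all tested genes. All 8 had overlapping groups. By limma, 0.570% of all tested genes were called and 8.70% had an unadjusted p under 0.05. The groups did not overlap in 5.31%. At such shares, counts of 0 among 8 genes say little about the members.

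**Figure D2:**
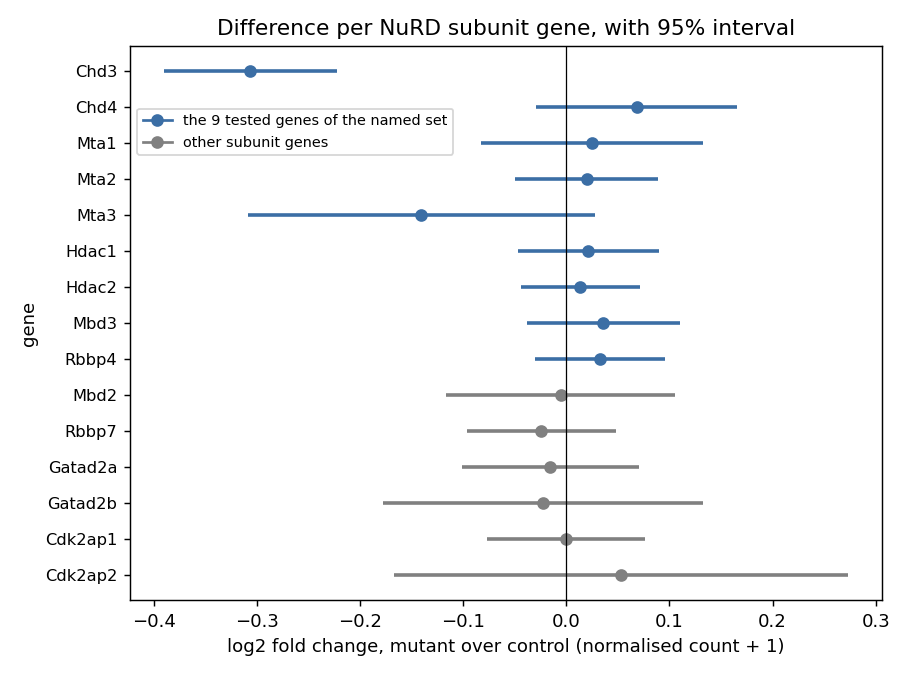
Log2 fold change of mutant over control (x axis, on the scale of normalised count + 1) for the 9 tested genes of the set and 6 other NuRD subunit genes (y axis). Points are estimates from 4 libraries per group and lines are 95% intervals from limma. The interval of Chd3 (-0.39 to -0.22) is the only one drawn that does not include 0.

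The order of levels per kb of exon placed Chd4 first in controls at 1084 normalised counts per kb, followed by Mbd3 (933), Hdac2 (859), Rbbp4 (847), Hdac1 (826), Mta2 (679), Chd3 (593), Mta1 (530), Mta3 (60.9) and Chd5 (1.01). Hdac2, Rbbp4 and Hdac1 overlapped between libraries and are not separable from each other, while Mta2 lay above Chd3 in every control. In controls Chd3 (576 to 615 per kb) lay above Mta1 (481 to 564), and in mutants it lay below (467 to 514 against 523 to 557). The order depends on the length used: with the longest transcript, Rbbp4 (1588 per kb in controls) and Hdac1 (1397) came before Chd4 (1298). With that length Chd3 and Mta1 overlapped in mutants (543 to 598 against 574 to 612).

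**Figure D3:**
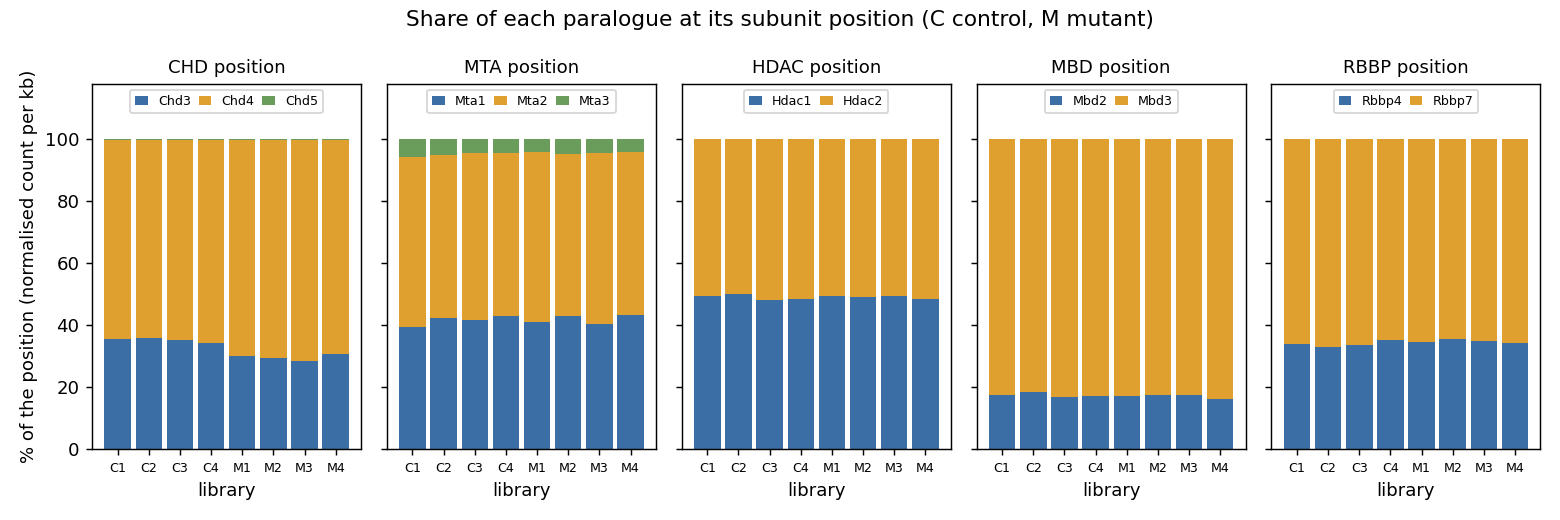
Share of each paralogue in the mRNA of the genes for its subunit position (y axis, percent of normalised counts per kb of exon). Bars are the 4 control (C1 to C4) and 4 mutant (M1 to M4) libraries. The share of Chd3 is 34.3% to 35.9% in controls and 28.5% to 30.7% in mutants, and in the other 4 panels the shares of the 2 groups overlap.

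The remaining NuRD subunit genes did not differ detectably. None of 6 was called, against 0.570% of all tested genes. Of the 6, 5 had a fold change below 0, as had 6588 of all 13692 tested genes, and the median was -0.01. Rbbp7, the X-linked paralogue of Rbbp4, was at 4792 ± 186 in controls and 4710 ± 33.0 in mutants (log2 fold change -0.02, adjusted p = 0.910 by limma). Part of its exon sequence (174 bases) lies opposite Txlng. Gatad2a, which encodes a subunit that links the MBD protein to the remodeller, was at 1531 ± 65.1 and 1514 ± 35.5 (log2 fold change -0.02, adjusted p = 0.952 by limma). Cdk2ap2, a small subunit, was at 163 ± 15.2 and 169 ± 17 (log2 fold change 0.05, adjusted p = 0.940 by limma).

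Including these 6 subunits, 99 related genes in 8 lists were tested, and limma called 0 of them, against 0.570% of all tested genes. Of the 99, 9 (9.09%) had an unadjusted p under 0.05, against 8.70% of all tested genes. By edgeR 0 were called and 9 had an unadjusted p under 0.05, and by DESeq2 these numbers were 1 and 7. In the list of other CHD remodellers 0 of 7 were called. Chd7, a remodeller needed in neural crest and many organs, was at 998, 884, 995 and 1341 in controls 1 to 4 and at 1121, 1150, 1224 and 1251 in mutants 1 to 4 (log2 fold change 0.19, adjusted p = 0.697 by limma). Control 4 lay above all mutants and the other controls lay below all mutants. Without control 4 the log2 fold change of Chd7 was 0.31 (adjusted p = 0.0254 by limma). Chd9 (log2 fold change -0.08, adjusted p = 0.751) and Chd8 (0.07, adjusted p = 0.795) did not pass by limma.

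Among 17 factors known to bind or recruit NuRD, 0 were called, against 0.570% of all tested genes. Of the 17, 5 (29.4%) had an unadjusted p under 0.05, against 8.70% of all tested genes. In 2 of them all mutants lay below all controls, against 3.00% of all tested genes. The list was chosen with earlier results of these data known, so these shares are descriptions. Zfpm2, also called Fog2, a cofactor of GATA proteins, was at 284, 278, 252 and 309 in controls 1 to 4 and at 187, 208, 216 and 244 in mutants 1 to 4. The groups did not overlap, and its mean was 281 ± 23.6 in controls and 214 ± 23.5 in mutants (log2 fold change -0.40, SE 0.092, adjusted p = 0.111 by limma). DESeq2 called it (adjusted p = 0.0317). The other gene without overlap was Bcl11a, a transcription factor of blood and neurons, named after its values were seen, at 104 ± 10.1 and 76.2 ± 18.5 (log2 fold change -0.48, adjusted p = 0.426 by limma). Ikzf1, a factor of blood cells, was at 34.2 ± 6.6 and 18.2 ± 7.0 (log2 fold change -0.93, adjusted p = 0.252 by limma). Beside it, the 6 macrophage markers summed to 345 to 585 in controls and 244 to 450 in mutants, and the part of blood cells in this value was not tested. Zfpm1, or Fog1, was at 287 ± 12.3 and 326 ± 21.6 (log2 fold change 0.18, adjusted p = 0.410 by limma). Sall1, named outside the rule for its role in nephron progenitors, was at 3096 ± 198 in controls and 3319 ± 158 in mutants (log2 fold change 0.10, adjusted p = 0.630 by limma).

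**Figure D4:**
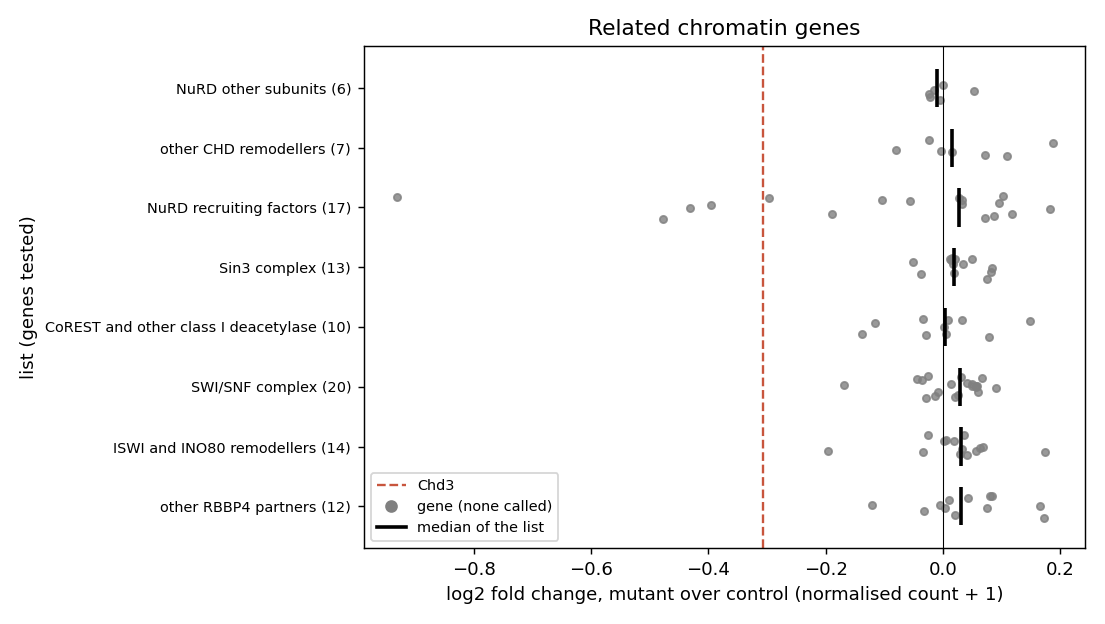
Log2 fold change of mutant over control (x axis) for 99 tested genes in 8 lists of related chromatin genes (y axis, with the number tested). Grey points are genes, none of them called, black bars are list medians, and the dashed line marks Chd3 at -0.31. The list medians lie between -0.01 and 0.03.

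In other complexes that share subunits with NuRD no gene was called by limma. Since 0.570% of all tested genes were called, counts of 0 in lists this short say little about them. In the Sin3 complex, which also holds HDAC1, HDAC2 and RBBP4, 0 of 13 were called and log2 fold changes ran from -0.05 to 0.08. The members with the smallest p were Sin3a, the scaffold (0.05, adjusted p = 0.799 by limma), Brms1 (0.08) and Sap30 (0.08). Among 10 genes of CoREST and other class I deacetylase complexes 0 were called. Log2 fold changes there were 0.15 for Rcor2, a CoREST scaffold (adjusted p = 0.697 by limma), and -0.12 for Hdac8, a class I deacetylase (adjusted p = 0.820 by limma). Among 12 partners of RBBP4 in Polycomb, chromatin assembly and cell cycle complexes 0 were called. Values there were 0.16 for Ezh1 (adjusted p = 0.426 by limma), 0.07 for Chaf1a and 0.08 for Ezh2.

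In the SWI/SNF list 0 of 20 tested genes were called, against 0.570% of all tested genes. Log2 fold changes there were 0.09 for Smarcd2 (adjusted p = 0.654 by limma), 0.07 for Actl6a and 0.06 for Dpf2. In the list of ISWI, INO80 and related remodellers 0 of 14 were called, against the same 0.570%. Smarca1, the ISWI motor also called SNF2L, was at 883, 964, 999 and 892 in controls 1 to 4 and at 794, 791, 803 and 872 in mutants 1 to 4. All mutants lay below all controls, and the means were 935 ± 56.2 and 815 ± 38.4 (log2 fold change -0.20, SE 0.053, adjusted p = 0.170 by limma). Cecr2, a partner of ISWI motors, was at 642 ± 49.0 and 724 ± 55.7 (log2 fold change 0.17, adjusted p = 0.439 by limma), and for Baz1b the log2 fold change was 0.06.

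Summed markers of 2 kidney compartments also separated the groups. The 6 markers of renal stroma summed to 16010, 16232, 17083 and 16817 in controls 1 to 4 and to 13153, 12784, 14301 and 15177 in mutants 1 to 4. Foxd1 was the 1 stromal marker of 6 called lower, and it is the gene from which Cre is driven. Without Foxd1 the other 5 summed to 14778 to 15390 in controls and 12316 to 14439 in mutants, again with no overlap. The 6 nephron progenitor markers summed to 5707 to 6672 in controls and to 7084 to 7582 in mutants, with 1 of 6 called higher (Itga8). The 8 proliferation markers overlapped between groups (32717 to 33996 and 33655 to 35250), and 0 of 8 were called. The part of compartment size in the level of Chd3 was not tested.

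**Figure D5:**
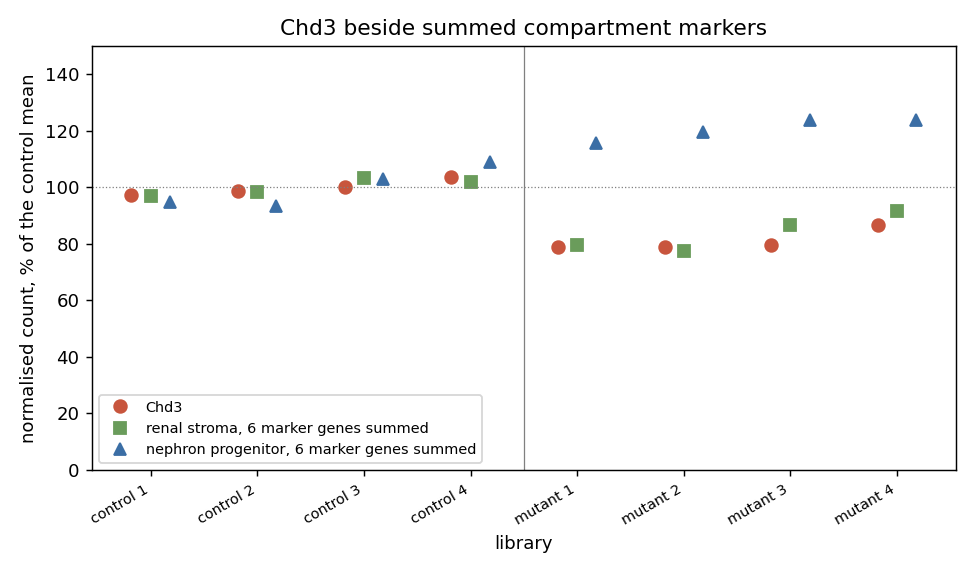
Normalised count of Chd3 and summed normalised counts of 6 renal stroma and 6 nephron progenitor markers (y axis, percent of the mean of the 4 controls) in each of the 8 libraries (x axis). For Chd3 and the stromal sum the 4 mutants lie below the 4 controls, and the nephron progenitor sum is higher in all 4 mutants.

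The genes whose levels followed Chd3 most closely over the 8 libraries were Rab32, a small GTPase (Pearson r = 0.992), Hic1, a transcriptional repressor (0.988), AW551984 (0.987), Adamts9, a secreted metalloprotease (0.981), and Marcks, a substrate of protein kinase C (0.976). These r are descriptions over 8 libraries that share the same groups. All 5 genes had all mutants below all controls, against 3.00% of all tested genes. They were picked by their r with Chd3, itself chosen by its group difference. The selection favours such genes, and nothing is read from this count. Hic1 was at 1496, 1445, 1572 and 1627 in controls 1 to 4 and at 1006, 1059, 1107 and 1209 in mutants 1 to 4. Rab32 was at 139 to 151 in controls and at 81.2 to 101 in mutants. In all 5 the highest mutant was mutant 4, as in Chd3, which the selection also favours.

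With group means subtracted, the closest were Nynrin (r = 0.992), 2610020H08Rik (0.984), Nnat (0.977), Prox1 (0.976) and Arg1 (0.973). Each of these was highest in control 4 among controls and in mutant 4 among mutants, as Chd3 was, which picking them by r favours. Nynrin, for example, was at 2492, 2575, 2659 and 2841 in controls 1 to 4 and at 2308, 2371, 2412 and 2824 in mutants 1 to 4. For the other 8 tested NuRD genes, r with Chd3 over the 8 libraries ran from -0.65 for Rbbp4 to 0.40 for Mta3. After subtraction of group means it ran from -0.70 for Mta3 to 0.64 for Mta1. These r cannot be weighed against those of the closest genes, which were picked as the highest among all tested genes. The r over the 8 libraries also holds the group difference by which Chd3 was chosen.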

How the data were processed

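Poly(A)-selected RNA of E13.5 kidneys (500 ng input, TruSeq kit, per the labels' protocols) was sequenced in 8 libraries. The authors' tools were HTSeq, TopHat2 2.0.12 and DESeq2 1.4.5 and their build was mm10 (GRCm38), per the submitters' processing notes. Annotation and use of strand are not given in the sources used here. The authors deposited a signal table, in which each library's read counts had been divided by its size factor, and, per the file headers, the fold change as a ratio, the log2 fold change and p-values. All values (100%) were whole multiples of what 1 read is worth within 0.01 read, so reads were recovered.

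Levels were log2-transformed (pseudocount 1) and genes with a mean of at least 10 tested, two-sided, with genotype as the single term and a prior variance that follows intensity (limma 3.58.1, R 4.3.3). Recovered reads were tested with edgeR 4.0.16 and DESeq2 1.42.0 as alternatives, beside other pseudocounts, filters, scalings, a block and left-out libraries. Calls are at an adjusted p under 0.05. Genes called from each list and up to 3 more with the smallest p were named, besides the 10 members, the 5 closest to Chd3 by each measure, and Smo; 1 gene that this rule names is not reported here. Members and lists were chosen with earlier results of these data known. Libraries of 1 group were compared in pairs, and chi-square divided by its degrees of freedom was 2.89 to 10.98, above the 1 that sampling alone gives.

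In simulated data for mutant against control over 13692 genes, 34.0% of 50 genes changed by 1.25-fold were called, 68.0% at 1.5-fold, 84.0% at 2-fold and 100% at 4-fold, with 11 false among 154 calls. Python 3.11.15 and matplotlib 3.10.9 made the figures. Gene positions, lengths and transcripts came from GENCODE vM21.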

Additional observations from a re-analysis of the deposited data

Results flagged for a closer look

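A library lay far from the other 3 of its group in 4 of 70 groups of 4 values examined, where chance gives about 3.5. Chd3 was at 4339 in mutant 4 against 3940 to 3975 in the other mutants. Smarca1 was at 872 in the same library against 791 to 803. In control 4, Chaf1a was at 1513 against 1421 to 1435 in the other controls, and Ezh2 was at 2661 against 2392 to 2425.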

How the results depend on the processing

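The log2 fold change of Chd3 stayed between -0.34 and -0.28 under all 21 alternatives, from -0.34 without mutant 4 to -0.29 without control 4 among fits that left out 1 library. It lost the call without an intensity trend (-0.31, adjusted p = 0.105 by limma) and without the libraries numbered 2 (-0.30, adjusted p = 0.0882 by limma), and in both the count of called members was 0. With 1 library left out that count was 1 throughout. The count of all genes called was 78, and it was 18 (without control 3) to 185 (without control 4) with 1 library left out, 214 by DESeq2, 4 without an intensity trend, 29 without controls 1 and 2, 2 without the libraries numbered 2 and 146 without control 4 and mutant 2. With the sample number as a replicate block it was 232, and Chd3 kept its call (-0.31, adjusted p = 0.00089 by limma). Samples with the same number correlated in their deviations from the group means by 0.325, 0.287, 0.294 and 0.0635, and controls 1 to 3 but not control 4 correlated best with the mutant of their own number; since 1 of these values was under 0.1, the numbers were not taken as pairs. The count of related genes called was 0 in the main test, 1 by DESeq2 and 1 with the replicate block (both Zfpm2, with an adjusted p of 0.0369 by limma with the block), 1 without control 4 and mutant 2 (Chd7), and 0 to 1 with 1 library left out. Signs turned without controls 1 and 2 for Mta1 (-0.0268), Rbbp7 (0.0149) and Chd8 (-0.00449), and without control 4 and mutant 2 for Cdk2ap2 (-0.0622) and Gatad2a (0.0224). With 1 library left out, Mta1 ran from -0.0204 (without control 1) to 0.0559, Cdk2ap2 from -0.0111 (without control 4) to 0.0970 and Gatad2a from -0.0404 to 0.00948 (without control 4). None of these values was called. The cause of these changes was not tested. The other 7 tested members kept their direction in all 21 alternatives, and 0 of them was called in any. Depth limits Chd5, with 6 to 14 reads per library.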
